A study of Mus musculus with 30 samples.

Results

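The collagen genes of MC38 tumours are described here across 6 groups of libraries. A member is any row of the gene count table whose mouse symbol is Col, a number, the letter a and a number, with nothing after it. That rule finds 44 genes among the 55471 of the table. By collagen type, 11 are fibrillar (types I, II, III, V, XI, XXIV and XXVII), 8 belong to basement membranes (types IV, XV and XVIII) and 25 to the remaining types. MC38 is a mouse colon carcinoma line, and it was grown under the skin of female C57BL/6 mice of 6 to 8 weeks. The cells were wild type (WT) or carried loss-of-function mutations in B2m, which encodes the light chain of MHC class I (B2mKO), or in Jak1, a kinase of the interferon receptors (Jak1KO). Each mouse received 100 µg of antibody into a vein, either against PD-1, a checkpoint receptor of T cells (aPD1), or an isotype control (IgG1), on days 7, 10 and 13, and the tumour was taken on day 14. The 6 groups are WT IgG1, WT aPD1, B2mKO IgG1, B2mKO aPD1, Jak1KO IgG1 and Jak1KO aPD1, with 5 libraries in each, all from pieces of whole tumour of about 50 mg. The labels name no mutation in the host mice, so host cells within a tumour carry both genes as the strain does. The labels do not say whether a mutant line is 1 clone, and with 1 line per gene an effect of the line and of the mutation cannot be told apart. They also do not state that every library comes from another mouse, and p-values then rest on the spread among these samples, which may be technical.

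Collagens are secreted proteins whose chains wind into a triple helix, made of identical or different chains from separate genes. Fibrillar collagens assemble outside the cell into the cross-striated fibrils of connective tissue: type I and III form the bulk of soft tissue fibrils, and the minor types V and XI sit within them and regulate their diameter. Type IV collagen is instead a sheet-like network under epithelia and around vessels, with types XV and XVIII as its proteoglycan-like companions. The remaining types include the beaded filaments of type VI, the anchoring fibrils of type VII, the short-chain networks of type VIII, collagens that decorate fibrils (IX, XII, XIV, XVI, XX, XXII) and collagens that span the cell membrane (XIII, XVII, XXIII). In solid tumours fibroblasts and pericytes are a usual source of fibrillar collagen, and tumour cells can add their own.

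Total counts per library were between 17629795 and 25944701, and collagen genes took between 0.977% and 4.51% of them. The targeted genes followed the labels: B2m was at 501 to 963 CPM (counts scaled to library size) in the B2mKO libraries against 1965 to 5459 in the WT libraries, and Jak1 at 64.4 to 81.9 CPM in the Jak1KO libraries against 182 to 255 in the WT libraries. B2m was also below every WT library in the Jak1KO libraries, at 933 to 1708 CPM. WT IgG1 replicate 3 and B2mKO aPD1 replicate 2 stood apart from the rest. They held the lowest level of their group for 27 and 24 of the 32 collagen genes that could be tested, with 3577 and 3461 CPM for the sum of 10 leukocyte markers against 930.1 to 1864 in the other WT IgG1 and 1782 to 2486 in the other B2mKO aPD1 libraries. Counts of calls, and values of collagens whose call changed, are therefore also given without these libraries. Both were set apart in part by their low collagen levels, and leaving them out can narrow the spread of those genes. Calls gained without them are not independent of that choice. The 10 simple epithelial markers were low for tumours of a carcinoma line and summed to 3.22 to 32.7 CPM per library, with Cdx2 at 0 in all 30 libraries, Epcam at no more than 3.63 CPM, Krt8 at no more than 4.26 CPM and Cdh1 at 1.53 to 15.4 CPM. Bulk RNA mixes tumour and host cells, so fewer cells of a type and less RNA per cell cannot be told apart for any collagen named here.

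Compared per length, as reads per kilobase of exon scaled to library size (RPKM, over all annotated exons of a gene), Col3a1 and Col6a1 were the most abundant collagen mRNAs. Over the 30 libraries Col3a1, the sole chain of type III collagen (chr1:45311538-45349706, plus strand, GRCm38), averaged 1011 RPKM. Col6a1 (chr10:76708792-76726168, minus strand) averaged 633 RPKM. Together these made up 46.5% to 68.5% of the summed collagen RPKM of a library. Col5a1 followed among the fibrillar genes at 161 RPKM, above Col1a1 at 70.8 RPKM. Col1a2, whose product pairs with that of Col1a1 in type I collagen, averaged 13.4 RPKM. For basement membranes, Col4a1 (151 RPKM), Col4a2 (109 RPKM) and Col18a1 (24.0 RPKM) led. Among the remaining types Col6a2 (230.3 RPKM), Col6a3 (136 RPKM), Col16a1 (55.3 RPKM), Col8a1 (39.3 RPKM) and Col7a1 (37.5 RPKM) came after Col6a1. The merged exons of a gene can be longer than 1 mRNA (12426 bases for Col1a2), which lowers its RPKM, so a ratio between genes is better read across libraries than as a ratio of molecules.

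**Figure D1:**
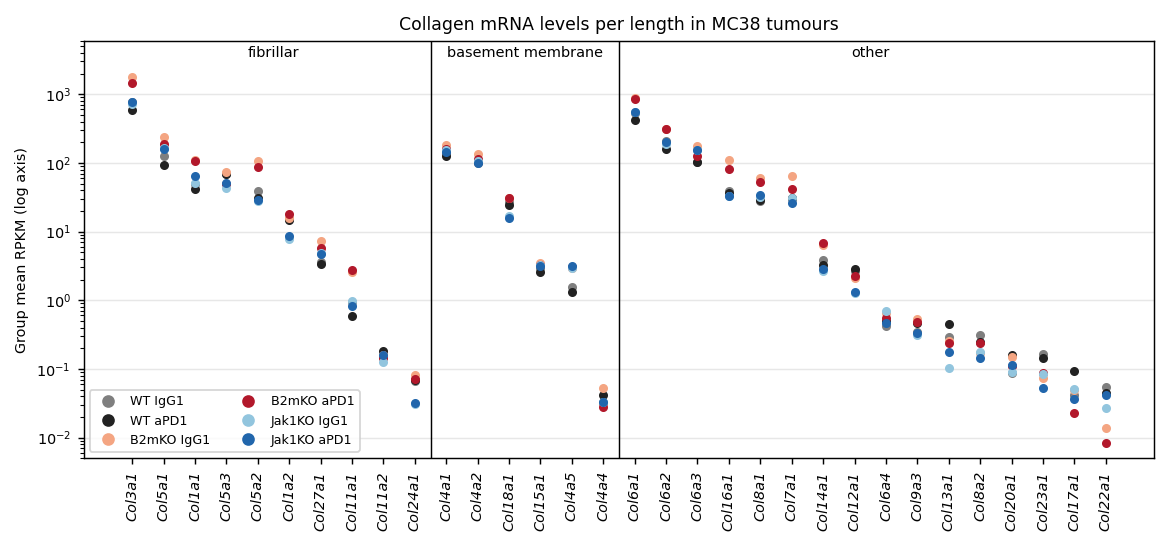
Mean RPKM of each tested collagen gene in the 6 groups on a log axis, 1 point per group, with genes ordered by class and by their mean over all 30 libraries. Col3a1 and Col6a1 lie above all other members in every group.

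A low-count filter kept 15505 genes for testing, among them 32 of the 44 collagens: 10 of 11 fibrillar, 6 of 8 basement membrane and 16 of 25 others. The 12 left out are Col2a1, Col4a3, Col4a6, Col6a5, Col6a6, Col9a1, Col9a2, Col10a1, Col19a1, Col25a1, Col26a1 and Col28a1. Each had between 4 and 119 counts over all 30 libraries and at most 0.729 CPM in any of them (Col10a1). Col2a1, Col9a1, Col9a2 and Col10a1 are cartilage collagens, and the 10 cartilage and bone markers also summed to only 0.145 to 1.22 CPM. Of the type IV chains, Col4a3, Col4a4 and Col4a6 were thus at or near the detection limit while Col4a1, Col4a2 and Col4a5 were not.

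Promoter windows of 300 bases (250 before to 50 after the RefSeq start, GRCm38.p6) were at hand for 35 of the 44 members. The 5 shown cover members that changed in all 4 comparisons with B2mKO tumours below (Col3a1 and Col16a1) and abundant members that passed the test in none with all libraries (Col1a2, Col4a1 and Col4a2). Capitals mark every match, on either strand and whether or not matches overlap, to the letters CCAAT of the CCAAT box, the letters GGGCGG of the GC box and the letters TATAAA of the TATA box. The windows are Col3a1 at chr1:45311288-45311587, plus strand, Col16a1 at chr4:130047590-130047889, plus strand, Col1a2 at chr6:4505368-4505667, plus strand, Col4a1 at chr8:11312777-11313076, minus strand and Col4a2 at chr8:11312555-11312854, plus strand.
Col3a1: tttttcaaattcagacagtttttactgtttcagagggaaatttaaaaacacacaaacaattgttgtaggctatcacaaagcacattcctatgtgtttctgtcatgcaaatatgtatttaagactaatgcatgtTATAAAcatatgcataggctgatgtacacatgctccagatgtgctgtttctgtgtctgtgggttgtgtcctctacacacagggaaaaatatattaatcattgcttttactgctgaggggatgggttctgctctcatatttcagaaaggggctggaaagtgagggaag
Col16a1: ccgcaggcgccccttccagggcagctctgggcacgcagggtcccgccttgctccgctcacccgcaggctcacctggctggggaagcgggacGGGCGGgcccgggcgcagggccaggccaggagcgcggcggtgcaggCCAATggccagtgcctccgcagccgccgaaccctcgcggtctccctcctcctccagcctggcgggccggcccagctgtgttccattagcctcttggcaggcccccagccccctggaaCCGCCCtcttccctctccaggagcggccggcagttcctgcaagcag
Col1a2: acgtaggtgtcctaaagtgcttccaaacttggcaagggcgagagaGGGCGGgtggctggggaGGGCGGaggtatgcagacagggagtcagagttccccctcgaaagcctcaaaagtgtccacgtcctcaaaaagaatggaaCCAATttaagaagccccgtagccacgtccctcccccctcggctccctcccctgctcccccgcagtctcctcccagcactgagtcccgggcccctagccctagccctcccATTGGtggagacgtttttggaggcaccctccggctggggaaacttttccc
Col4a1: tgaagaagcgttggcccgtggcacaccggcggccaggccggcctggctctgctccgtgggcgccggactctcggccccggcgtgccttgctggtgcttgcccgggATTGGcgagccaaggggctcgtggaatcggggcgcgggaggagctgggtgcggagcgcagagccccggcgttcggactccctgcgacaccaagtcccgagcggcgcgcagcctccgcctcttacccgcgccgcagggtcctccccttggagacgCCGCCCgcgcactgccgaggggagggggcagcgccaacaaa
Col4a2: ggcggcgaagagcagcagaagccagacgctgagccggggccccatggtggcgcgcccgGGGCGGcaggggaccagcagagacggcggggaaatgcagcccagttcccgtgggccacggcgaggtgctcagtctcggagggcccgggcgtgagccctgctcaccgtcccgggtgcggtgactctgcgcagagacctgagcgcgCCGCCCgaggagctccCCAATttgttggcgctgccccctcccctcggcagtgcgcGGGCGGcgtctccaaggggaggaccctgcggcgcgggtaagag

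The Col3a1 window had 37.7% G and C, 1 TATAAA match and neither of the other motifs. Col16a1 had 74.3% G and C with 1 CCAAT and 2 GC box matches, and Col1a2 61.0% with 2 CCAAT and 2 GC box matches. Col4a1 and Col4a2 are transcribed away from each other, and their windows share 78 bases. Over all 32851 promoters of the table the CCAAT letters occurred in 37.4%, the GC box letters in 35.7% and the TATA letters in 13.6%. Among the 38 windows of the 35 collagen genes the numbers with a match were 13, 23 and 5. Close neighbours in the genome include Col3a1 and Col5a2, 24614 bases apart on chromosome 1, and Col6a2 and Col6a1, 85161 bases apart on chromosome 10.

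More collagen genes were higher than lower in the B2mKO than in the WT tumours under both antibodies. The test was edgeR's quasi-likelihood F-test on the counts of all 30 libraries, with Benjamini-Hochberg adjustment over the 15505 genes and a threshold of 0.05. With IgG1, 10 of 32 collagens were higher and 1 was lower in the B2mKO than in the WT tumours, where 20.6% of all tested genes passed in either direction, 9.07% higher and 11.5% lower. With aPD1, 11 were higher and 2 lower, against 19.7% of all genes passing, 9.55% higher and 10.2% lower. The median log2 fold change of the 32 genes was 0.61 with IgG1 and 0.32 with aPD1, and that of all tested genes was 0.00 in both. By class, 5 of 10 fibrillar genes were higher with IgG1 (median 0.95) and 5 with aPD1 (median 0.91), none lower. Of the 6 basement membrane genes 1 was higher in each (medians 0.41 and 0.33), and of the 16 others 4 and 5 were higher and 1 and 2 lower (medians 0.61 and 0.11).

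The same direction was found against Jak1KO tumours. With IgG1, 14 of 32 were higher and 0 lower (28.1% of all tested genes passed, 14.3% higher and 13.8% lower), with a median log2 fold change of 0.72 against -0.02 for all genes. With aPD1, 10 were higher and 1 lower (28.1% of all tested genes passed, 14.8% higher and 13.3% lower), with a median of 0.59 against -0.01. These comparisons share the B2mKO libraries with those against WT tumours and are not independent of them. Without WT IgG1 replicate 3 and B2mKO aPD1 replicate 2 the counts were 13 higher and 1 lower against WT with IgG1 (26.1% of all genes passed, 12.9% higher and 13.3% lower) and 16 and 3 with aPD1 (29.2%, with 14.6% in each direction). Against Jak1KO they were 18 and 0 with IgG1 (40.8%, 21.6% higher and 19.1% lower) and 18 and 1 with aPD1 (38.3%, 20.3% higher and 18.0% lower). Members past the threshold in that fit and not in the fit of all libraries, with their log2 differences there, were Col5a1 (0.67), Col6a3 (0.52) and Col7a1 (0.84) against WT with IgG1. They were Col13a1 (-1.01), Col18a1 (0.47), Col27a1 (1.06), Col4a1 (0.58), Col6a3 (0.53) and Col7a1 (0.76) against WT with aPD1. Against Jak1KO tumours they were Col27a1 (0.59), Col4a2 (0.37), Col5a1 (0.53) and Col7a1 (1.09) with IgG1 and Col1a1 (1.03), Col1a2 (1.25), Col27a1 (0.59), Col4a1 (0.41), Col4a2 (0.45), Col5a1 (0.53), Col7a1 (0.98) and Col9a3 (0.71) with aPD1. Col3a1, Col5a2, Col6a1, Col6a2, Col8a1, Col11a1 and Col16a1 were higher in B2mKO tumours in each of these 4 comparisons. In the fit of all libraries 13 genes passed in no comparison of groups, among them the abundant Col4a1, Col4a2, Col6a3, Col7a1 and Col1a2.

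**Figure D2:**
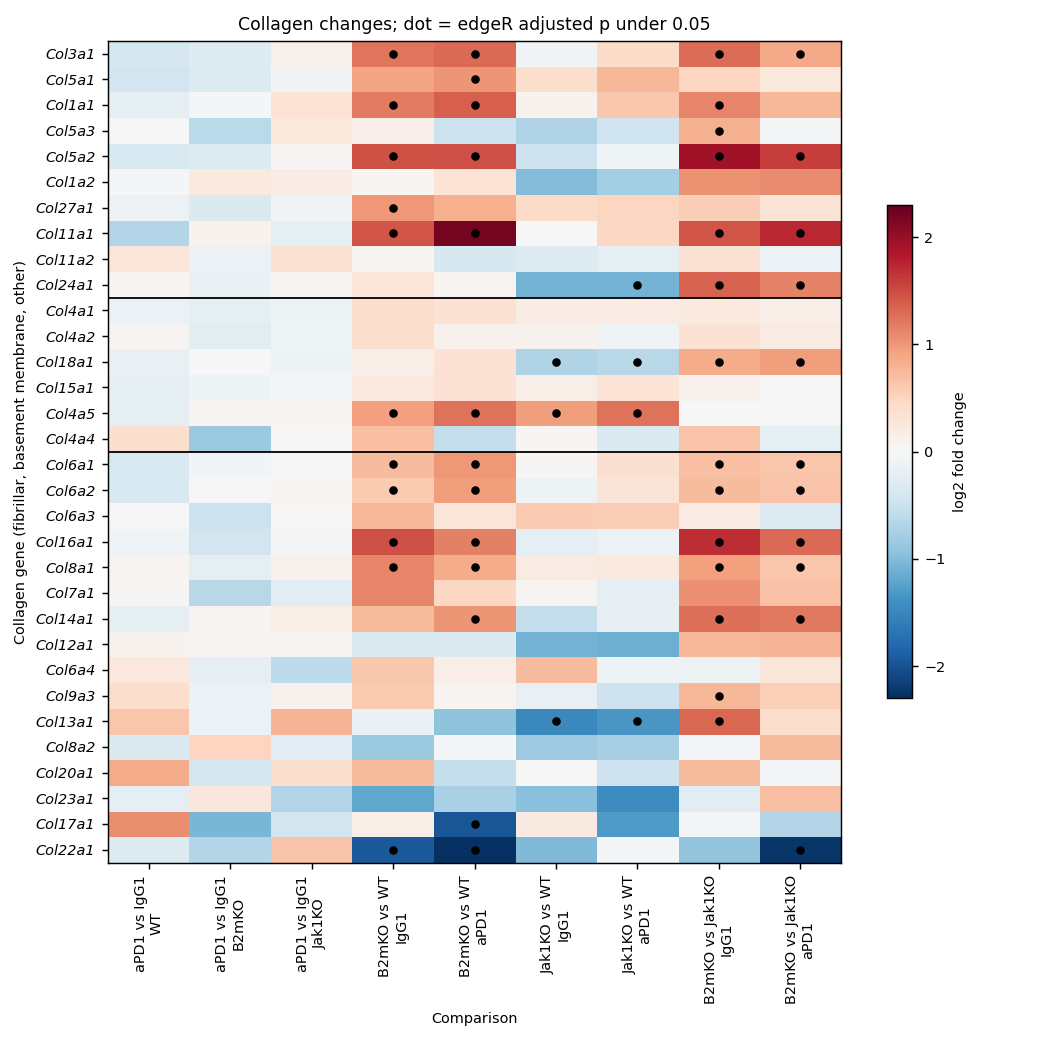
log2 fold changes of the 32 tested collagen genes (rows, by class and level) in each comparison of groups (columns), red for higher and blue for lower in the group named first, with a dot where edgeR's adjusted p was under 0.05. Dots cluster in the 4 columns that compare B2mKO with WT or Jak1KO tumours, and the 3 columns of aPD1 against IgG1 hold none.

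Values below run from replicate 1 to 5 of a group. Col3a1 encodes the chain of type III collagen. In WT tumours Col3a1 was at 8986, 7054, 4563, 11004 and 5618 CPM with IgG1 and 3586, 6596, 4705, 7687 and 5893 with aPD1. The B2mKO libraries stood at 21581, 25930.4, 12223, 16231 and 11267 CPM with IgG1 and 16311, 6743, 14114, 18368 and 15187 with aPD1. In Jak1KO tumours the values were 7069, 7957, 7163, 7552 and 6043 CPM with IgG1 and 8110.4, 7289, 7290.0, 7952 and 7675 with aPD1. Every B2mKO library except aPD1 replicate 2 lay above every WT and every Jak1KO library. With IgG1, Col3a1 was 2.34-fold higher in the B2mKO than in the WT tumours, a log2 difference of 1.23 ± 0.25 (SE, edgeR adjusted p = 0.000861). With aPD1 it was 1.31 ± 0.25 (SE, edgeR adjusted p = 0.000394). Against Jak1KO tumours it was 1.29 ± 0.25 (SE, edgeR adjusted p = 0.000247) with IgG1 and 0.88 ± 0.25 (SE, edgeR adjusted p = 0.00786) with aPD1. The Jak1KO libraries lay within the range of the WT IgG1 group, with a difference from WT of -0.06 ± 0.25 (SE, edgeR adjusted p = 0.9) under IgG1.

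Col5a2, the neighbour of Col3a1 on chromosome 1, encodes a chain of type V collagen. Col5a2 was at 521, 274, 229, 531 and 329 CPM in WT IgG1 and 223, 360.4, 203, 389 and 297 in WT aPD1 libraries. B2mKO IgG1 libraries held 1245, 1662, 736, 900.2 and 627 CPM and B2mKO aPD1 libraries 1055, 395, 677, 1136 and 886. Jak1KO IgG1 libraries held 253, 294, 262, 288 and 260.3 CPM and Jak1KO aPD1 libraries 296, 239, 284, 294 and 265. The B2mKO and WT groups did not overlap under either antibody, nor did the B2mKO and Jak1KO groups. The log2 difference from WT was 1.46 ± 0.27 (SE, edgeR adjusted p = 0.000322) with IgG1 and 1.49 ± 0.27 (SE, edgeR adjusted p = 0.000207) with aPD1. From Jak1KO tumours it was 1.93 ± 0.27 (SE, edgeR adjusted p = 3.62e-06) with IgG1, and 1.59 ± 0.27 (SE, edgeR adjusted p = 5.11e-05) with aPD1.

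Col1a1 and Col1a2 encode the chains of type I collagen, and Col1a1 passed the test in the fit of all libraries while Col1a2 did not. The WT values of Col1a1 were 302, 544, 43.0, 272 and 429.7 CPM under IgG1 and 242, 339.7, 179, 384 and 220.1 under aPD1. Those of B2mKO tumours were 697, 1262, 507, 561 and 637 CPM under IgG1 and 714, 182, 843, 1094 and 717 under aPD1. Those of Jak1KO tumours were 279, 435, 276, 296 and 393 CPM under IgG1 and 464, 298, 458, 479 and 401 under aPD1. B2mKO aPD1 replicate 2 lay below all but 2 WT libraries, B2mKO IgG1 replicate 3 lay below WT IgG1 replicate 2, and WT IgG1 replicate 3 was the lowest of all 30. Col1a1 was higher in the B2mKO than in the WT tumours by 1.20 ± 0.41 (SE, edgeR adjusted p = 0.0392) with IgG1 and by 1.38 ± 0.42 (SE, edgeR adjusted p = 0.0191) with aPD1. The first call was lost without B2mKO IgG1 replicates 1 or 2 or WT IgG1 replicates 1, 3 or 4 (edgeR's adjusted p = 0.0585 to 0.147), and in the edgeR fit of the 2 groups alone (adjusted p = 0.148). The second was lost without B2mKO aPD1 replicate 4 or WT aPD1 replicate 3 (edgeR's adjusted p = 0.0521 to 0.0622). Without both libraries that stood apart, the differences were 0.93 ± 0.26 (SE, edgeR adjusted p = 0.0087) and 1.64 ± 0.25 (SE, edgeR adjusted p = 2.96e-05). Against Jak1KO tumours the difference was 1.13 ± 0.41 (SE, edgeR adjusted p = 0.0415) with IgG1 and 0.76 ± 0.41 (SE, edgeR adjusted p = 0.176) with aPD1, and the former call was lost without B2mKO IgG1 replicates 1 or 2 or Jak1KO IgG1 replicates 1, 3, 4 or 5 (edgeR's adjusted p = 0.0572 to 0.161) and with the replicate number as a block (edgeR adjusted p = 0.0552).

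In WT tumours Col1a2 was at 199, 367, 17.5, 51.5 and 310.5 CPM with IgG1 and 177, 234, 152, 234 and 121 with aPD1. The B2mKO libraries stood at 109.9, 220.3, 176, 97.6 and 375 CPM with IgG1 and 186, 137, 478, 166 and 169.7 with aPD1. In Jak1KO tumours the values were 108, 67.4, 94.2, 90.9 and 116 CPM with IgG1 and 240.4, 46.8, 73.2, 78.8 and 96.4 with aPD1. In each comparison made the groups overlapped. The lowest of the WT IgG1 values is that of replicate 3, and the next lowest was 51.5 CPM. The highest of the Jak1KO aPD1 libraries was 5.14 times the lowest. No comparison of Col1a2 passed the test, the differences of B2mKO from WT being 0.05 ± 0.53 (SE, edgeR adjusted p = 0.958) and 0.31 ± 0.53 (SE, edgeR adjusted p = 0.744). Without the libraries that stood apart Col1a2 was lower in the Jak1KO than in the WT tumours with IgG1, at a log2 difference of -1.30 ± 0.47 (SE, edgeR adjusted p = 0.0464), and higher in B2mKO than in Jak1KO tumours with aPD1, by 1.25 ± 0.47 (SE, edgeR adjusted p = 0.0359).

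Type V collagen has further chains in Col5a1 and Col5a3. Col5a1 was at 319.6 to 1627 CPM in WT IgG1, 531 to 1375 in WT aPD1, 1727 to 2343 in B2mKO IgG1, 416 to 2046 in B2mKO aPD1, 1322 to 1536 in Jak1KO IgG1 and 1183 to 1558 in Jak1KO aPD1. It passed the test in 1 comparison, B2mKO against WT with aPD1, at 1.02 ± 0.33 (SE, edgeR adjusted p = 0.0286). That call was lost without B2mKO aPD1 replicates 1, 3 or 5 or WT aPD1 replicates 1, 2 or 3 (edgeR's adjusted p = 0.0628 to 0.084) and in the fit of the 2 groups alone (edgeR adjusted p = 0.117). With IgG1 the B2mKO and WT libraries did not overlap, and the difference of 0.90 ± 0.33 (SE, edgeR adjusted p = 0.0515) did not pass the threshold. Without the libraries that stood apart it was 0.67 ± 0.20 (SE, edgeR adjusted p = 0.0123).

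Col5a3 took another course. It was at 575, 569, 368, 556 and 475 CPM in B2mKO IgG1 and at 288, 299.8, 298, 317 and 246 CPM in Jak1KO IgG1, without overlap, and at 175 to 638 CPM in WT IgG1. Its level in B2mKO aPD1 was 400.4, 129, 438, 341 and 349.9 CPM, where replicate 2 was the lowest. The only difference past the threshold was B2mKO over Jak1KO with IgG1, at 0.81 ± 0.26 (SE, edgeR adjusted p = 0.0208), lost without Jak1KO IgG1 replicate 5 (edgeR's adjusted p = 0.0537). Without the libraries that stood apart the Jak1KO level of Col5a3 was below that of WT tumours too, at a log2 difference of -0.92 ± 0.16 (SE, edgeR adjusted p = 0.000102) with IgG1 and -0.48 ± 0.15 (SE, edgeR adjusted p = 0.0143) with aPD1.

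Col11a1 encodes a chain of type XI collagen, which initiates fibrils. Col11a1 was at 13.1, 19.4, 3.72, 16.2 and 8.57 CPM in WT IgG1 and 5.13, 6.39, 6.20, 14.1 and 6.38 in WT aPD1 libraries. B2mKO IgG1 libraries held 36.3, 45.3, 34.5, 27.1 and 23.4 CPM and B2mKO aPD1 libraries 44.7, 9.95, 36.0, 43.9 and 41.5. Jak1KO IgG1 libraries held 11.8, 10.1, 13.3, 12.3 and 13.8 CPM and Jak1KO aPD1 libraries 9.08, 12.5, 13.0, 11.1 and 7.25. Apart from replicate 2 of the aPD1 group, the B2mKO libraries lay above every WT and Jak1KO library. The log2 difference from WT was 1.45 ± 0.35 (SE, edgeR adjusted p = 0.00374) with IgG1 and 2.20 ± 0.36 (SE, edgeR adjusted p = 6.12e-05) with aPD1. From Jak1KO tumours it was 1.44 ± 0.35 (SE, edgeR adjusted p = 0.00212) and 1.73 ± 0.35 (SE, edgeR adjusted p = 0.000393). Col11a2, another chain of type XI, stayed between 0.222 and 1.77 CPM and passed in no comparison.

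Types XXVII and XXIV are fibrillar collagens found mainly in cartilage and bone. Col27a1 was at 74.4 to 109 CPM in B2mKO IgG1 against 15.6 to 64.3 in WT IgG1, and the difference of 1.00 ± 0.31 (SE, edgeR adjusted p = 0.0228) was lost without B2mKO IgG1 replicates 1 or 2 or WT IgG1 replicate 3 (edgeR's adjusted p = 0.0515 to 0.0551). With aPD1 it was 0.81 ± 0.31 (SE, edgeR adjusted p = 0.0672). Col24a1 stayed at or under 1.17 CPM in all libraries. It was higher in B2mKO than in Jak1KO tumours with IgG1, 0.375 to 0.991 against 0.141 to 0.293 CPM, by 1.35 ± 0.38 (SE, edgeR adjusted p = 0.00887). With aPD1 the difference of 1.14 ± 0.39 (SE, edgeR adjusted p = 0.0273) was lost without B2mKO aPD1 replicates 3 or 4 or Jak1KO aPD1 replicates 3 or 4 (edgeR's adjusted p = 0.0576 to 0.185).

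**Figure D3:**
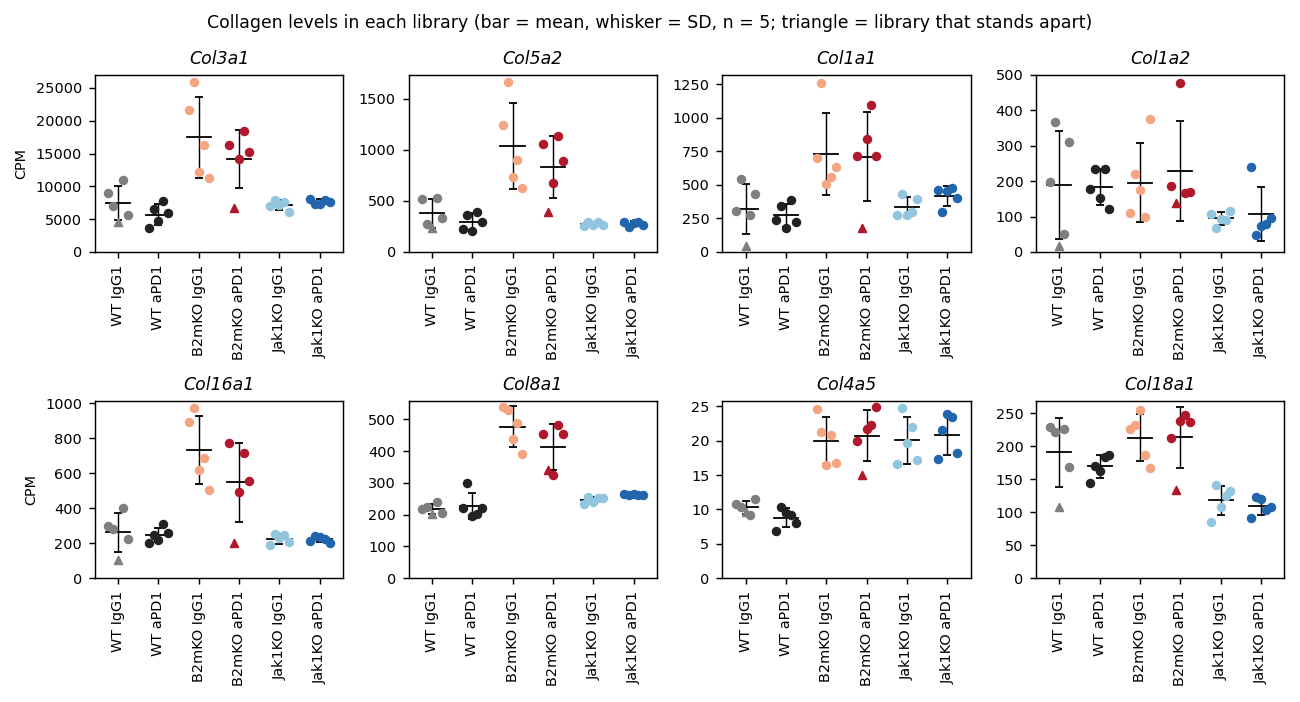
CPM of 8 collagen genes in each library, with 1 point per library, bars for the group mean, whiskers for the SD (n = 5) and triangles for WT IgG1 replicate 3 and B2mKO aPD1 replicate 2. Col3a1, Col5a2, Col16a1 and Col8a1 are highest in the B2mKO groups, Col4a5 is lowest in the WT groups, Col18a1 is lowest in the Jak1KO groups, and Col1a2 overlaps between the groups of each comparison made.

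Among basement membrane collagens, the ubiquitous chains Col4a1 and Col4a2 did not pass the test in any comparison. The WT values of Col4a1 were 1210.2, 1164, 350.3, 1373 and 1072 CPM under IgG1 and 844, 903, 746, 1186 and 1011 under aPD1. Those of B2mKO tumours were 1623, 1721, 1215, 1307 and 972 CPM under IgG1 and 1313, 358, 1388, 1558 and 1312 under aPD1. Those of Jak1KO tumours were 1037, 1255, 1139, 1370.2 and 1012 CPM under IgG1 and 1113, 1125, 1064, 983 and 1079 under aPD1. The groups overlapped throughout, and outside the libraries that stood apart all values lay between 746 and 1721 CPM. The difference of B2mKO from WT tumours was 0.40 ± 0.28 (SE, edgeR adjusted p = 0.318) with IgG1 and 0.34 ± 0.28 (SE, edgeR adjusted p = 0.441) with aPD1, and for Col4a2 it was 0.41 ± 0.29 and 0.10 ± 0.29 (SE). Without both libraries that stood apart Col4a1 was higher in the B2mKO than in the WT tumours with aPD1, by 0.58 ± 0.13 (SE, edgeR adjusted p = 0.00188). In the same fit both genes were higher in B2mKO than in Jak1KO tumours with aPD1, Col4a1 by 0.41 ± 0.13 (SE, edgeR adjusted p = 0.0175) and Col4a2 by 0.45 ± 0.14 (SE, edgeR adjusted p = 0.0123). With IgG1 only Col4a2 passed there, at 0.37 ± 0.13 (SE, edgeR adjusted p = 0.0302) against 0.26 ± 0.13 (SE, edgeR adjusted p = 0.102) for Col4a1, and the difference between the genes was not tested.

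Col4a5 encodes a chain of the restricted type IV networks, and in the fit of all libraries it alone passed the test as higher in both mutant genotypes. In WT tumours Col4a5 was at 10.8, 10.3, 9.67, 9.23 and 11.6 CPM with IgG1 and 6.89, 10.3, 9.55, 9.23 and 7.99 with aPD1. The B2mKO libraries stood at 24.7, 21.2, 16.5, 20.8 and 16.7 CPM with IgG1 and 20.0, 15.0, 21.7, 22.3 and 24.9 with aPD1. In Jak1KO tumours the values were 16.6, 24.7, 19.7, 22.0 and 17.2 CPM with IgG1 and 17.3, 21.5, 23.8, 23.4 and 18.3 with aPD1. All 20 mutant libraries lay above all 10 WT libraries, which serve as the reference for both genotypes. With IgG1, B2mKO exceeded WT by 0.95 ± 0.14 (SE, edgeR adjusted p = 2.64e-05) and Jak1KO exceeded WT by 0.96 ± 0.14 (SE, edgeR adjusted p = 1.69e-05). With aPD1 the differences were 1.24 ± 0.14 (SE, edgeR adjusted p = 4.23e-07) and 1.24 ± 0.14 (SE, edgeR adjusted p = 2.53e-07). B2mKO and Jak1KO tumours differed by 0.00 ± 0.14 with IgG1 and -0.01 ± 0.14 with aPD1 (SE), with edgeR adjusted p-values of 0.985 and 0.977. Its neighbour Col4a6, 1308 bases away on the X chromosome, was among the untested genes, and Col4a4 stayed between 0.0490 and 0.745 CPM.

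Col18a1, from whose product the fragment endostatin is cut, was lowest in Jak1KO tumours. Col18a1 was at 229, 222, 108, 226 and 168 CPM in WT IgG1 and 144, 169.9, 163, 184 and 187 in WT aPD1 libraries. B2mKO IgG1 libraries held 226, 231, 254, 187 and 167 CPM and B2mKO aPD1 libraries 212, 133, 238, 247 and 236. Jak1KO IgG1 libraries held 84.5, 141, 107, 124 and 132 CPM and Jak1KO aPD1 libraries 91.3, 123, 119, 103 and 107. Jak1KO aPD1 libraries lay below all WT aPD1 libraries, and with IgG1 the groups overlapped only through WT IgG1 replicate 3. The difference of Jak1KO from WT was -0.69 ± 0.18 (SE, edgeR adjusted p = 0.00647) with IgG1 and -0.64 ± 0.18 (SE, edgeR adjusted p = 0.0102) with aPD1. B2mKO exceeded Jak1KO by 0.86 ± 0.18 (SE, edgeR adjusted p = 0.000528) and 0.97 ± 0.18 (SE, edgeR adjusted p = 0.000139) without overlap. From WT the B2mKO tumours differed by 0.16 ± 0.18 (SE, edgeR adjusted p = 0.546) and 0.33 ± 0.18 (SE, edgeR adjusted p = 0.2), the second rising to 0.47 ± 0.13 (SE, edgeR adjusted p = 0.00713) without the libraries that stood apart. Col15a1, the other member of this pair of types, ranged from 6.39 to 51.2 CPM with all groups overlapping and passed in no comparison.

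Type VI collagen forms beaded filaments in which chains from Col6a1, Col6a2 and 1 further gene associate. The WT values of Col6a1 were 2030.2, 2759, 1861, 3020.0 and 2135 CPM under IgG1 and 1177, 1728, 1681, 2436 and 2255 under aPD1. Those of B2mKO tumours were 4659, 4328, 3904, 3447 and 3136 CPM under IgG1 and 3982, 2054.5, 3721, 4499 and 4335 under aPD1. Those of Jak1KO tumours were 2269, 2209, 2542, 3014 and 2006 CPM under IgG1 and 2408, 2276, 2749.9, 2169 and 2353 under aPD1. B2mKO IgG1 libraries lay above all WT IgG1 and Jak1KO IgG1 libraries. The difference from WT was 0.72 ± 0.19 (SE, edgeR adjusted p = 0.00713) with IgG1 and 1.00 ± 0.19 (SE, edgeR adjusted p = 0.000347) with aPD1, and from Jak1KO 0.69 ± 0.19 (SE, edgeR adjusted p = 0.00586) and 0.64 ± 0.19 (SE, edgeR adjusted p = 0.0113). Col6a2 ran parallel, at 2108 to 3082 CPM in B2mKO IgG1 against 1371 to 2274 in WT IgG1, where 1 B2mKO library lay under the highest WT library, and at 1311 to 2002 in Jak1KO IgG1. Its difference from WT was 0.60 ± 0.20 (SE, edgeR adjusted p = 0.0361) with IgG1, and 0.96 ± 0.20 (SE, edgeR adjusted p = 0.00132) with aPD1. The first of these calls was lost without B2mKO IgG1 replicates 1, 2 or 4 or WT IgG1 replicates 1, 3 or 5 (edgeR's adjusted p = 0.0523 to 0.0973). From Jak1KO tumours it was 0.72 ± 0.20 (SE, edgeR adjusted p = 0.00863) with IgG1 and 0.66 ± 0.20 (SE, edgeR adjusted p = 0.0159) with aPD1, the latter lost without B2mKO aPD1 replicate 4 (edgeR's adjusted p = 0.0528).

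Col6a3, which supplies the usual partner chain of type VI, passed the test in no comparison. It was at 1160.2, 1922, 264, 1431 and 1414 CPM in WT IgG1 and at 2553, 2483, 1990.2, 1909.8 and 1634 CPM in B2mKO IgG1. With aPD1 it was at 1372, 1094, 833, 1618 and 1292 CPM in WT and 2118, 365, 1786, 1656 and 1583 CPM in B2mKO tumours. The low values of WT IgG1 replicate 3 and B2mKO aPD1 replicate 2 stand far from their groups, and the Jak1KO libraries lay between 1532 and 2114 CPM. The difference of B2mKO from WT was 0.77 ± 0.34 (SE, edgeR adjusted p = 0.107) with IgG1 and became 0.52 ± 0.16 (SE, edgeR adjusted p = 0.0162) without those libraries. With aPD1 it went from 0.27 ± 0.34 (SE, edgeR adjusted p = 0.631) to 0.53 ± 0.16 (SE, edgeR adjusted p = 0.0114), and Jak1KO then exceeded WT by 0.55 ± 0.15 (SE, edgeR adjusted p = 0.00565). Col6a4, at 1.80 to 9.24 CPM, passed in no comparison.

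Col16a1 encodes a fibril-associated collagen. In WT tumours Col16a1 was at 300.1, 282, 102, 400.0 and 227 CPM with IgG1 and 202, 248, 217, 308 and 257 with aPD1. The B2mKO libraries stood at 895, 971, 622, 686 and 503 CPM with IgG1 and 776, 199, 494, 719 and 556 with aPD1. In Jak1KO tumours the values were 189, 255, 231, 248 and 205 CPM with IgG1 and 210.4, 244, 233, 223 and 203 with aPD1. Every B2mKO library but aPD1 replicate 2 exceeded every WT and Jak1KO library. It was 2.81-fold higher in the B2mKO than in the WT tumours with IgG1, a log2 difference of 1.49 ± 0.28 (SE, edgeR adjusted p = 0.000357), and differed by 1.16 ± 0.27 (SE, edgeR adjusted p = 0.00334) with aPD1. From Jak1KO the differences were 1.70 ± 0.28 (SE, edgeR adjusted p = 2.94e-05) and 1.30 ± 0.28 (SE, edgeR adjusted p = 0.000688).

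Col8a1, a short-chain collagen of vessel walls, had the smallest SE of the members that changed. Col8a1 was at 216, 223, 202, 239.7 and 206 CPM in WT IgG1 and 220.2, 299.6, 196, 202 and 219.7 in WT aPD1 libraries. B2mKO IgG1 libraries held 540.2, 529.6, 438, 488 and 390.0 CPM and B2mKO aPD1 libraries 454, 341, 326, 482 and 454. Jak1KO IgG1 libraries held 233, 256, 240.1, 253 and 253 CPM and Jak1KO aPD1 libraries 266, 263, 266, 263 and 262. The 10 B2mKO libraries lay above all 20 others, including the 2 libraries that stood apart. B2mKO exceeded WT by 1.13 ± 0.11 (SE, edgeR adjusted p = 3.64e-08) with IgG1 and 0.86 ± 0.11 (SE, edgeR adjusted p = 3.22e-06) with aPD1, and Jak1KO by 0.95 ± 0.11 (SE, edgeR adjusted p = 2.26e-07) and 0.64 ± 0.11 (SE, edgeR adjusted p = 7.83e-05). Col8a2, its partner in type VIII, was at or under 4.37 CPM with all groups overlapping.

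Col7a1, the anchoring fibril collagen of skin, was at 763, 808, 617, 677 and 481 CPM in B2mKO IgG1, above all WT IgG1 (35.1 to 446 CPM) and Jak1KO IgG1 libraries (283 to 349 CPM). Its differences of 1.12 ± 0.43 (SE, edgeR adjusted p = 0.0653) from WT and 1.06 ± 0.43 (SE, edgeR adjusted p = 0.0673) from Jak1KO did not pass. The values of WT IgG1 replicate 3 and B2mKO aPD1 replicate 2, 35.1 and 65.3 CPM, were far below their groups. Without those libraries Col7a1 was higher in B2mKO tumours in all 4 comparisons, by 0.84 ± 0.20 (SE, edgeR adjusted p = 0.003) and 0.76 ± 0.20 (SE, edgeR adjusted p = 0.00511) from WT and by 1.09 ± 0.19 (SE, edgeR adjusted p = 4.56e-05) and 0.98 ± 0.20 (SE, edgeR adjusted p = 0.000308) from Jak1KO. The libraries left out hold the lowest Col7a1 values of their groups, so the smaller SE follows in part from that choice. The sum of 10 skin keratinocyte markers was 16.0 to 50.6 CPM in B2mKO tumours against 10.9 to 26.7 CPM in the others. Trp63 alone reached 40.6 CPM in a library, against at most 9.98 for Krt10, 6.99 for Sfn and 3.36 for Krt14. Krt5, Krt15, Krtdap and Dsg3 were at 0 in 22, 24, 27 and 27 of the 30 libraries. The part of these markers in the Col7a1 values was not tested.

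Col14a1, which decorates fibrils in loose connective tissue, was higher in B2mKO than in Jak1KO tumours. It was at 31.9, 37.4, 49.9, 49.2 and 55.6 CPM in B2mKO IgG1 and at 17.7, 17.9, 21.3, 22.1 and 13.8 CPM in Jak1KO IgG1, without overlap. The difference was 1.27 ± 0.34 (SE, edgeR adjusted p = 0.0048) with IgG1 and 1.21 ± 0.33 (SE, edgeR adjusted p = 0.00713) with aPD1. From WT it was 1.02 ± 0.33 (SE, edgeR adjusted p = 0.0295) with aPD1, and 0.73 ± 0.33 (SE, edgeR adjusted p = 0.117) with IgG1, and the call with aPD1 was lost without B2mKO aPD1 replicates 3 or 5 or WT aPD1 replicates 1, 2, 3 or 5 (edgeR's adjusted p = 0.051 to 0.108). Col12a1, of the same subgroup, was at 6.11 to 84.8 CPM and passed in no comparison, although without the libraries that stood apart it was lower in the Jak1KO than in the WT tumours, at a log2 difference of -1.38 ± 0.39 (SE, edgeR adjusted p = 0.0109) with IgG1 and -1.14 ± 0.37 (SE, edgeR adjusted p = 0.0193) with aPD1.

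The remaining calls were for mRNAs of a few CPM or less. Col13a1, a transmembrane collagen, was at 1.86, 1.44, 0.556, 1.44 and 1.45 CPM in WT IgG1 and 0.547, 0.150, 0.423, 0.831 and 0.460 CPM in Jak1KO IgG1. It was lower in the Jak1KO than in the WT tumours, at a log2 difference of -1.48 ± 0.41 (SE, edgeR adjusted p = 0.0114) with IgG1 and -1.33 ± 0.38 (SE, edgeR adjusted p = 0.0127) with aPD1, the second lost without WT aPD1 replicate 2 (edgeR's adjusted p = 0.0573). It was also higher in B2mKO than in Jak1KO tumours with IgG1, by 1.32 ± 0.41 (SE, edgeR adjusted p = 0.016), which was lost without B2mKO IgG1 replicate 2 (edgeR's adjusted p = 0.0679).

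Col22a1, a collagen of tissue junctions, was lower in the B2mKO than in the WT tumours. It was at 0.506, 0.830, 0.333, 0.516 and 0.352 CPM in WT IgG1 and 0.0573, 0.130, 0.141, 0.159 and 0.142 CPM in B2mKO IgG1, and at 0.386, 0.524, 0.272, 0.612 and 0.236 CPM in WT aPD1 and 0.0540, 0.0980, 0.146, 0 and 0.0872 CPM in B2mKO aPD1. The WT and B2mKO groups did not overlap under either antibody. Col22a1 was lower in the B2mKO than in the WT tumours, at a log2 difference of -1.93 ± 0.45 (SE, edgeR adjusted p = 0.00314) with IgG1 and -2.29 ± 0.50 (SE, edgeR adjusted p = 0.00162) with aPD1, and lower than in Jak1KO tumours, at a log2 difference of -2.24 ± 0.50 (SE, edgeR adjusted p = 0.00121) with aPD1, where the groups overlapped. With IgG1 the Jak1KO and B2mKO groups overlapped too, and the difference from Jak1KO did not pass, at -0.91 ± 0.49 (SE, edgeR adjusted p = 0.173). At this level a library holds few counts of the gene, and the fitted values depend on edgeR's default prior count.

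Col17a1, a transmembrane collagen of hemidesmosomes, was at 1.10, 0.334, 0.589, 0.283 and 0.472 CPM in WT aPD1 and at 0.162, 0.343, 0, 0.0972 and 0.0872 CPM in B2mKO aPD1, a difference of -1.96 ± 0.60 (SE, edgeR adjusted p = 0.0202). That call was lost without B2mKO aPD1 replicate 5 or WT aPD1 replicate 1 (edgeR's adjusted p = 0.0502 to 0.0849). Col9a3 was at 1.41 to 2.63 CPM in B2mKO IgG1 and 0.920 to 1.55 CPM in Jak1KO IgG1, a difference of 0.77 ± 0.26 (SE, edgeR adjusted p = 0.0241) that was lost without B2mKO IgG1 replicates 1 or 2 or Jak1KO IgG1 replicates 2, 4 or 5 (edgeR's adjusted p = 0.0509 to 0.0793). Col20a1 and Col23a1 stayed at or under 1.95 CPM and passed in no comparison.

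Few collagens passed the test between Jak1KO and WT tumours. With IgG1, 1 of 32 collagens was higher and 2 were lower in the Jak1KO than in the WT tumours, where 17.9% of all tested genes passed, 6.93% higher and 11.0% lower. With aPD1, 1 was higher and 3 were lower (20.0% of all tested genes passed, 8.06% higher and 12.0% lower). Both counts lie under the background share. Col4a5 was the gene that was higher, and Col13a1 and Col18a1 were lower under both antibodies. The third lower gene with aPD1 was Col24a1, at -1.08 ± 0.39 (SE, edgeR adjusted p = 0.048), a call lost in 11 of 15 alternative fits, among them those without Jak1KO aPD1 replicates 2, 3, 4 or 5 or WT aPD1 replicates 1, 2, 4 or 5 (edgeR's adjusted p = 0.056 to 0.115). Without the libraries that stood apart the counts were 1 higher and 6 lower with IgG1 (22.2% of all genes passed, 8.73% higher and 13.5% lower) and 4 and 5 with aPD1 (33.0%, 14.3% higher and 18.7% lower). Without WT IgG1 replicate 3 alone 5 collagens passed with IgG1, and 2198 genes did over all tested. Members past the threshold without both libraries and not in the fit of all libraries were Col12a1 (-1.38), Col1a2 (-1.30), Col24a1 (-1.21) and Col5a3 (-0.92) with IgG1 and Col12a1 (-1.14), Col27a1 (0.47), Col5a1 (0.75), Col5a3 (-0.48) and Col6a3 (0.55) with aPD1. The medians of the 32 genes were -0.03 with IgG1 and -0.13 with aPD1.

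No collagen passed the test between aPD1 and IgG1 in any genotype. In WT tumours 0 of 32 passed edgeR's adjusted threshold, where 4.06% of all tested genes passed (3.48% higher and 0.58% lower), 0 had an unadjusted p under 0.05 and 0 passed with DESeq2. Col20a1 had the smallest p-value, at 0.85 ± 0.43 (SE, edgeR adjusted p = 0.303), followed by Col17a1, at 1.07 ± 0.55 (SE, edgeR adjusted p = 0.306), and Col11a1, at -0.68 ± 0.35 (SE, edgeR adjusted p = 0.314). For the abundant members the log2 change was -0.39 ± 0.25 for Col3a1, -0.35 ± 0.19 for Col6a1, -0.22 ± 0.41 for Col1a1 and -0.14 ± 0.28 for Col4a1 (SE). The median over the 32 genes was -0.11 against -0.03 over all tested genes. The WT aPD1 libraries held 1498.5 to 3630.5 CPM of the 10 leukocyte markers against 930 to 1864 CPM in the WT IgG1 libraries other than replicate 3, and 3 of the 10 markers (Itgam, Cd68 and Ptprc) rose. Their part in the collagen values was not tested.

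Leaving out WT IgG1 replicate 3 alone, the library with the lowest collagen share of all 30, kept that count at 0, and leaving out both libraries that stood apart gave 2 lower and 0 higher. In the latter fit Col11a1 was lower under aPD1 in WT tumours, at a log2 difference of -0.90 ± 0.25 (SE, edgeR adjusted p = 0.0292), and so was Col5a1, at a log2 difference of -0.67 ± 0.19 (SE, edgeR adjusted p = 0.0377). The values of Col5a1 were 1005, 1627, 319.6, 1459 and 970.2 CPM with IgG1 and 531, 646, 581, 1375 and 835 CPM with aPD1. Of all genes tested in that fit 5.77% passed, 4.88% higher and 0.887% lower, and the median of the 32 collagens was -0.31.

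In B2mKO tumours 0 of 32 collagens passed edgeR's adjusted threshold and 1 had an unadjusted p under 0.05, Col5a3 at -0.62 ± 0.26 (SE, edgeR adjusted p = 0.813), with 0 by DESeq2 and 0.0% of all tested genes passing. Next by p were Col8a1, at -0.21 ± 0.11, and Col4a4, at -0.86 ± 0.48 (SE). In Jak1KO tumours 0 passed by edgeR and by DESeq2, 0 had an unadjusted p under 0.05, and 0.0% of all tested genes passed. The smallest p-values there were those of Col13a1, at 0.79 ± 0.42 (SE, edgeR adjusted p = 1.0), Col6a4 and Col22a1. The difference of the aPD1 change between genotypes was tested as an interaction. Between B2mKO and WT tumours 0 of 32 collagens passed edgeR's threshold and 2 had an unadjusted p under 0.05, Col17a1 and Col20a1 (0.0967% of all tested genes passed, 0.0129% higher and 0.0838% lower). Between Jak1KO and WT tumours 0 passed and 0 had an unadjusted p under 0.05 (0.0% of all tested genes).

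Ratios between partner chains were compared across libraries. The Col6a1 to Col6a2 RPKM ratio stayed between 2.42 and 3.13 in all 30 libraries. The Col1a1 to Col1a2 ratio ran from 2.23 to 12.5. It was 2.59, 2.75, 2.23, 3.10 and 3.43 in WT aPD1 and 3.65, 12.1, 11.8, 11.5 and 7.88 in Jak1KO aPD1, without overlap. With IgG1 it ran from 2.62 to 10.0 in WT and from 4.88 to 12.2 in Jak1KO tumours, with overlap. In B2mKO IgG1 it was 12.0, 10.8, 5.46, 10.9 and 3.21, a wide spread within 1 group. The Col6a1 to Col6a3 ratio was 19.2 in WT IgG1 replicate 3 and 15.4 in B2mKO aPD1 replicate 2 against 2.34 to 7.48 in the other 28 libraries.

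For type V the Col5a1 to Col5a2 ratio set Jak1KO tumours apart. It was 6.25, 5.04, 6.29, 5.98 and 5.83 in Jak1KO IgG1 and 4.88, 6.39, 6.15, 5.19 and 5.00 in Jak1KO aPD1. In B2mKO tumours it was 1.58 to 3.14 with IgG1 and 1.18 to 3.39 with aPD1. In WT aPD1 it was 2.01 to 3.96, and in WT IgG1 2.16, 6.66, 1.56, 3.08 and 3.30, of which only replicate 2 reached the Jak1KO range. The neighbouring genes Col3a1 and Col5a2 stood at a ratio of 22.7 to 29.8 in Jak1KO tumours, of 15.1 to 20.4 in B2mKO tumours, of 16.7 to 25.2 in WT IgG1 and of 15.7 to 22.6 in WT aPD1, with the WT IgG1 range overlapping those of both mutant genotypes. By class, basement membrane genes made up 6.02% to 9.37% of the summed collagen RPKM in B2mKO libraries and 10.5% to 17.2% in the other libraries except WT IgG1 replicate 3, at 7.33%. These ratios were not put to a test and are given as values.

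**Figure D4:**
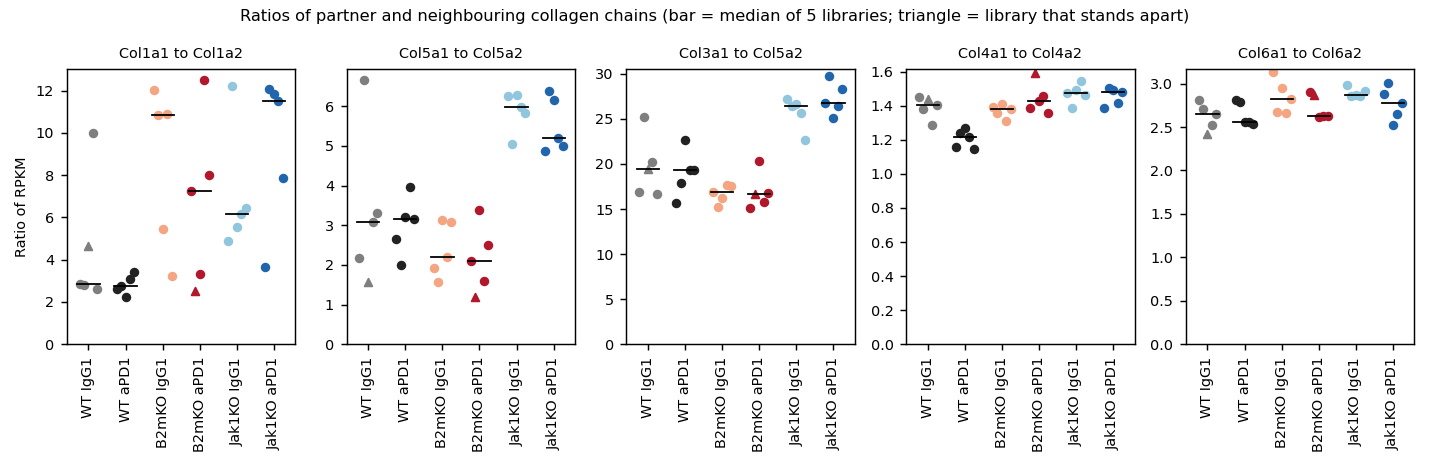
Ratios of RPKM between collagen chains in each library, with 1 point per library, bars for the group median and triangles for WT IgG1 replicate 3 and B2mKO aPD1 replicate 2. Col6a1 to Col6a2 stays between 2.42 and 3.13, Col1a1 to Col1a2 spreads from 2.23 to 12.5, and the Jak1KO libraries lie at 4.88 to 6.39 for Col5a1 to Col5a2.

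Genes that make, bind or degrade collagen were counted from lists chosen with earlier results of these data known. Enzymes and chaperones of collagen biosynthesis and cross-linking (33 of 35 tested) were higher and lower in the B2mKO than in the WT tumours for 8 and 3 genes with IgG1 and for 12 and 3 with aPD1, a share of 33.3% and 45.5% where 20.6% and 19.7% of all tested genes passed. Against Jak1KO tumours the counts were 15 and 2 with IgG1 and 12 and 2 with aPD1, or 51.5% and 42.4% where 28.1% of all tested genes passed under either antibody. Leaving out the libraries that stood apart gave 10 and 3, 14 and 3, 23 and 2, and 17 and 2, in the same order. In that fit 26.1%, 29.2%, 40.8% and 38.3% of all genes passed. P3h1, a prolyl 3-hydroxylase of fibrillar collagen, exceeded WT by 0.69 ± 0.08 (SE, edgeR adjusted p = 8.13e-07) with aPD1 and Jak1KO by 0.92 ± 0.08 (SE, edgeR adjusted p = 2.37e-09) with IgG1. Bmp1, the protease that removes the C-propeptide, exceeded WT by 0.79 ± 0.10 (SE, edgeR adjusted p = 4.33e-06) with IgG1. Loxl3, a lysyl oxidase, exceeded WT by 1.20 ± 0.15 (SE, edgeR adjusted p = 1.06e-06). Pcolce2, an enhancer of C-propeptide removal, went the other way in all 4 comparisons, with -2.27 ± 0.18 (SE, edgeR adjusted p = 6.42e-10) from WT and -2.60 ± 0.18 (SE, edgeR adjusted p = 1.82e-11) from Jak1KO under IgG1.

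In Jak1KO against WT tumours, 1 gene of that list was higher and 12 were lower with IgG1, led by the collagen isomerase Fkbp14 at -1.16 ± 0.18 (SE, edgeR adjusted p = 2.13e-05), and 3 and 3 passed with aPD1. That is 39.4% and 18.2% of the list where 17.9% and 20.0% of all tested genes passed. Without the libraries that stood apart the counts were 1 and 14, and 4 and 6, where 22.2% and 33.0% of all genes passed. In WT tumours 3 of the 33 (9.09%, where 4.06% of all tested genes passed) were lower under aPD1, and 5 without those libraries (5.77% of all genes). The 3 were Fkbp14 at -0.71 ± 0.17 (SE, edgeR adjusted p = 0.0187), the collagen chaperone Serpinh1 at -0.51 ± 0.13 (SE, edgeR adjusted p = 0.0257) and P3h1 at -0.29 ± 0.08 (SE, edgeR adjusted p = 0.0433). Serpinh1 was at 1359.8, 1366, 2289.9, 1497 and 1438 CPM with IgG1 and 932, 1067, 1203, 1336 and 1054 CPM with aPD1, without overlap, and without the libraries that stood apart its difference was -0.34 ± 0.09 (SE, edgeR adjusted p = 0.0302). Fkbp14 was at 25.1, 26.1, 43.9, 26.1 and 19.3 CPM with IgG1 and 12.4, 16.1, 21.2, 21.0 and 15.2 CPM with aPD1.

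Of the collagen receptors (9 of 10 tested), 2 were higher and 0 lower in the B2mKO than in the WT tumours with IgG1 and 1 and 0 with aPD1, or 22.2% and 11.1% where 20.6% and 19.7% of all tested genes passed. Against Jak1KO they were 3 and 0, and 2 and 0 (33.3% and 22.2%, background 28.1%), and for Jak1KO against WT 1 and 1, and 1 and 2 (22.2% and 33.3%, background 17.9% and 20.0%). In WT tumours 0 passed between aPD1 and IgG1 (4.06% of all tested genes). With those 2 libraries that stood apart left out, B2mKO against WT with aPD1 gave 3 and 0 (background 29.2%) and B2mKO against Jak1KO with aPD1 3 and 0 (38.3%). Jak1KO against WT with aPD1 gave 2 and 2 (33.0%), and aPD1 in WT tumours 1 and 0 (5.77%). Mrc2, an endocytic collagen receptor, was higher in both mutant genotypes than in WT tumours, in B2mKO by 1.58 ± 0.22 (SE, edgeR adjusted p = 1.1e-05) with IgG1 and 1.51 ± 0.22 (SE, edgeR adjusted p = 1.72e-05) with aPD1, and in Jak1KO by 0.91 ± 0.22 (SE, edgeR adjusted p = 0.00425) and 1.16 ± 0.22 (SE, edgeR adjusted p = 0.000321). Itga1, the alpha chain of a collagen-binding integrin, was higher in B2mKO tumours than in WT with IgG1, by 0.87 ± 0.16 (SE, edgeR adjusted p = 0.000244). Its beta partner Itgb1 was lower in the Jak1KO than in the WT tumours, at a log2 difference of -0.36 ± 0.07 (SE, edgeR adjusted p = 0.000258) and -0.24 ± 0.07 (SE, edgeR adjusted p = 0.00869). Of the collagen-degrading proteases (9 of 10 tested), 3 were higher and 0 lower in the B2mKO than in the WT tumours with IgG1, and 3 and 1 with aPD1, or 33.3% and 44.4% of the 9 (background 20.6% and 19.7%). The counts were 3 and 1, and 4 and 2, without the libraries that stood apart (background 26.1% and 29.2%). Fap, a fibroblast surface protease that cleaves denatured collagen, had the smallest p-value of the list in all 4 comparisons with B2mKO tumours, at 2.19 ± 0.33 (SE, edgeR adjusted p = 3.07e-05) and 3.45 ± 0.35 (SE, edgeR adjusted p = 5.14e-08) from WT. The gelatinases followed, with Mmp9 at 1.08 ± 0.19 (SE, edgeR adjusted p = 0.000181) from WT and Mmp2 at 1.33 ± 0.22 (SE, edgeR adjusted p = 3.29e-05) from Jak1KO, both with IgG1.

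Proteoglycans and glycoproteins of the fibril surface (15 of 15 tested) were higher and lower in the B2mKO than in the WT tumours for 8 and 2 genes with IgG1 and 8 and 1 with aPD1, or 66.7% and 60.0% of the 15 where 20.6% and 19.7% of all tested genes passed. Without the libraries that stood apart the counts were 8 and 2, and 9 and 1 (background 26.1% and 29.2%). Asporin (Aspn) had the smallest p-values, at 1.90 ± 0.34 (SE, edgeR adjusted p = 0.00025) and 3.09 ± 0.36 (SE, edgeR adjusted p = 4.8e-07), and lumican (Lum) reached 3.59 ± 0.42 (SE, edgeR adjusted p = 5.75e-07) with aPD1. Against Jak1KO tumours tenascin C (Tnc) had the smallest, at 4.06 ± 0.52 (SE, edgeR adjusted p = 8.34e-07) with IgG1 and 3.24 ± 0.50 (SE, edgeR adjusted p = 1.54e-05) with aPD1. In WT tumours 2 of the 15 (13.3%, background 4.06%) fell under aPD1, Aspn at -1.17 ± 0.34 (SE, edgeR adjusted p = 0.048) and keratocan (Kera) at -3.84 ± 1.05 (SE, edgeR adjusted p = 0.0347). Without the libraries that stood apart Aspn was at -0.80 ± 0.32 (SE, edgeR adjusted p = 0.16) and Kera at -3.83 ± 1.14 (SE, edgeR adjusted p = 0.0441). Kera is an mRNA near the detection limit, at or under 2.89 CPM in all libraries and at 0 in 5 of 30. Among partners of type IV collagen in the basement membrane (13 of 15 tested), 3 were higher and 1 lower in the B2mKO than in the WT tumours with IgG1, 2 and 0 with aPD1, or 30.8% and 15.4% of the 13 (background 20.6% and 19.7%). With the libraries that stood apart left out they were 6 and 2, and 8 and 0, of 14 tested, where 26.1% and 29.2% of all genes passed. Nidogen 1 (Nid1), which links laminin to type IV collagen, was lowest in Jak1KO tumours, at -1.24 ± 0.22 (SE, edgeR adjusted p = 0.00017) from WT with aPD1, and highest in B2mKO, at 0.96 ± 0.22 (SE, edgeR adjusted p = 0.00268) from WT with IgG1. The laminin chain Lama2 exceeded WT in Jak1KO tumours by 3.40 ± 0.58 (SE, edgeR adjusted p = 0.000105) and 4.62 ± 0.62 (SE, edgeR adjusted p = 3.02e-06).

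Markers of cell types that can make collagen are given beside these values. The 10 fibroblast markers summed to 1295 to 2212 CPM over all libraries. The highest sum was that of WT IgG1 replicate 3, and the other WT IgG1 libraries were at 1295 to 1769 CPM. In B2mKO against WT tumours 3 of these markers were higher and 4 lower with IgG1, 5 and 4 with aPD1, where 20.6% and 19.7% of all tested genes passed. Leaving out the libraries that stood apart gave 4 and 3, and 4 and 5, where 26.1% and 29.2% of all genes passed. Pdgfra, Dpep1 and Fbln1 were among the higher and Cd34, Clec3b, Ly6c1 and Scara5 among the lower genes under both antibodies. The pericyte and smooth muscle markers (8 of 10 tested) summed to 383 to 430 CPM in B2mKO IgG1 against 136 to 386 CPM in WT IgG1 (295 to 386 without replicate 3), with 1 higher (Pdgfrb) and 0 lower. With aPD1 they summed to 188 to 443 CPM in B2mKO (329 to 443 without replicate 2) against 207 to 379 CPM in WT, with 2 higher and 0 lower, and 2 and 1 without the libraries that stood apart (29.2% of all genes). Of the 10 endothelial markers 0 passed in B2mKO against WT tumours with IgG1, while 7 were higher and 0 lower with aPD1, and their sum was 133 to 274 CPM in B2mKO aPD1 against 120 to 187 CPM in WT aPD1. Leukocyte markers gave 0 calls in these comparisons (1 higher with IgG1 without the libraries that stood apart, where 26.1% of all genes passed), with 1365 to 2120.5 CPM in B2mKO IgG1. The part of these cell types in the collagen values was not tested.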

How the data were processed

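RNA of 30 tumours was sequenced as TruSeq paired-end libraries, per the labels' protocols. Tools in the submitters' processing notes are STAR 2.5.2a, edgeR 3.24.3, Cufflinks 2.2.1 and FastQC 0.11.2, and the build named is mm10. The deposited values are raw counts per gene, made with featureCounts 2.0.0 on Ensembl GRCm38 release 99, per the file headers, which show no strand, multi-mapping or paired-end option. In the header of WT aPD1 replicate 2 another alignment file is named. The 30 tables of single samples and the series table were identical, and 55144 of 55471 identifiers had a symbol. Without strand, reads of overlapping genes cannot be told apart, such as the 5′ ends of Col4a1 and Col4a2.

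Genes were filtered with edgeR's filterByExpr (minimum count 10, minimum total 15), leaving 15505, and scaled by TMM (factors 0.939 to 1.043). One quasi-likelihood fit over all 6 groups (edgeR 4.0.16, limma 3.58.1, R 4.3.3) gave each comparison, with Benjamini-Hochberg adjustment over all tested genes and a threshold of 0.05. CPM use TMM-scaled totals, and RPKM divide these by merged exon length. Log2 CPM for the correlations between libraries use a prior count of 2, and edgeR's fold changes keep its default prior count. Alternatives were DESeq2 1.42.0, RLE scaling, no filter beyond 1 count, a fit of the compared groups alone, a replicate block, and fits without 1 library or without both libraries that stood apart. Replicates were no copies of each other: over 60 pairs the counts gave a chi-square of 6.5 to 205.8 times its degrees of freedom. On simulated counts for B2mKO against WT with IgG1 (15331 genes), 43.3% of genes changed 1.5-fold, 75.4% changed 2-fold and 96.9% changed 4-fold were recovered, with 8 of 151 calls false. In that simulation 67, 69 and 64 genes changed at these folds, while 3194 genes passed in the same comparison of the data. Its spread came from the fit and no simulated library stood apart, so these rates hold for that setting only.

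The members and gene lists were chosen with earlier results of these data known, as was the choice of the libraries left out together. Named by rule were the 3 most abundant members of each class, up to 8 members past the threshold in each comparison, or the 3 with the smallest p where none passed, the chains of types I, IV, V and VI, and up to 3 genes per pathway list. All other members, among them Col7a1, Col12a1 and Col27a1, were described after their values were seen.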

Additional observations from a re-analysis of the deposited data

Results flagged for a closer look

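Of 192 groups of 5 libraries, taken over the 32 tested collagens, 29 held a library far from the other 4 on the log2(CPM + 0.1) scale, with a gap over 0.71 of the group's range. Chance gives about 1 in 20 such groups if groups are independent. The 32 genes share the same libraries, so the 29 cannot be set against that rate. B2mKO aPD1 replicate 2 accounted for 13 and WT IgG1 replicate 3 for 8, each time as the lowest of its group.

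In B2mKO aPD1 replicate 2 the fibrillar genes concerned were Col1a1 at 182 CPM (714 to 1094), Col3a1 at 6743 CPM (14114 to 18368), Col5a1 at 416 CPM (1621 to 2046), Col5a3 at 129 CPM (341 to 438), Col11a1 at 9.95 CPM (36.0 to 44.7) and Col27a1 at 20.9 CPM (82.8 to 94.6), with the range of the other 4 libraries in brackets. The basement membrane genes were Col4a1 at 358 CPM (1312 to 1558), Col4a2 at 199 CPM (839 to 947) and Col18a1 at 133 CPM (212 to 247). The others were Col6a1 at 2054.5 CPM (3721 to 4499), Col6a2 at 1361 CPM (2605 to 3252), Col6a3 at 365 CPM (1583 to 2118) and Col7a1 at 65.3 CPM (436 to 661).

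In WT IgG1 replicate 3 they were Col1a1 at 43.0 CPM (272 to 544), Col27a1 at 15.6 CPM (48.2 to 64.3), Col4a1 at 350.3 CPM (1072 to 1373) and Col4a2 at 215 CPM (677 to 947) among fibrillar and basement membrane genes. The others there were Col6a3 at 264 CPM (1160.2 to 1922), Col7a1 at 35.1 CPM (295 to 446), Col13a1 at 0.556 CPM (1.44 to 1.86) and Col20a1 at 0.111 CPM (0.440 to 0.671).

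Single high values were found for Col1a2 in B2mKO aPD1 replicate 3, at 478 CPM against 137 to 186 CPM, Col8a1 in WT aPD1 replicate 2, at 299.6 CPM against 196 to 220.2 CPM, Col9a3 in Jak1KO aPD1 replicate 2, at 1.53 CPM against 1.17 to 1.24 CPM, Col11a1 in WT aPD1 replicate 4, at 14.1 CPM against 5.13 to 6.39 CPM and Col12a1 in Jak1KO aPD1 replicate 1, at 31.4 CPM against 14.8 to 18.1 CPM. Single low values were found for Col4a4 in Jak1KO IgG1 replicate 4, at 0.138 CPM against 0.376 to 0.438 CPM, Col22a1 in B2mKO IgG1 replicate 1, at 0.0573 CPM against 0.130 to 0.159 CPM and Col22a1 in Jak1KO aPD1 replicate 2, at 0.0989 CPM against 0.385 to 0.581 CPM.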

How the results depend on the processing

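Of 56 calls of a collagen in a comparison, 41 passed the threshold in every alternative run and 15 were lost in at least 1, and none reversed its direction. Apart from fits without libraries, the calls of Col1a1 and Col27a1 with IgG1 and Col5a1 and Col14a1 with aPD1 for B2mKO against WT were lost in the fit of the 2 groups alone (edgeR adjusted p = 0.0528 to 0.148), those of Col6a2 for B2mKO against WT with IgG1, Col9a3 for B2mKO against Jak1KO with IgG1 and Col24a1 for B2mKO against Jak1KO with aPD1 with no filter beyond 1 count (adjusted p = 0.0566 to 0.0759), that of Col1a1 for B2mKO against Jak1KO with IgG1 with a replicate block, and that of Col24a1 for Jak1KO against WT with aPD1 in 3 such fits.

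Leaving out WT IgG1 replicate 3 and B2mKO aPD1 replicate 2 together moved the number of collagens past edgeR's threshold from 0 to 2 for aPD1 against IgG1 in WT tumours, from 3 to 7 for Jak1KO against WT with IgG1, from 4 to 9 for Jak1KO against WT with aPD1 and from 11 to 19 for B2mKO against Jak1KO with aPD1. Over all tested genes the share that passed moved from 4.06% to 5.77%, 17.9% to 22.2%, 20.0% to 33.0% and 28.1% to 38.3%, in the same order. Without WT IgG1 replicate 3 alone Jak1KO against WT with IgG1 gave 5, while calls over all genes went from 2773 to 2198. The fit of the 2 groups alone gave 9 for Jak1KO against WT with aPD1, while calls over all genes went from 3106 to 4752. The cause was not tested.

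Leaving out 1 library at a time gave 8 to 13 collagens for B2mKO against WT with IgG1, 10 to 15 with aPD1, 11 to 14 for B2mKO against Jak1KO with IgG1, 9 to 14 with aPD1, and 3 to 5 for Jak1KO against WT under either antibody. It gave 0 for every comparison of aPD1 with IgG1 and for both interactions. Over all genes these fits called 2221 to 3825 for B2mKO against WT with IgG1 and 2267 to 3176 with aPD1. For B2mKO against Jak1KO they called 3604 to 4338 and 3636 to 4566, and for Jak1KO against WT 2183 to 2953 and 2343 to 3186. RLE scaling and the lower filter moved no count by more than 1.5 times.

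With a replicate block the counts were 11 and 13 for B2mKO against WT (IgG1, aPD1), 13 and 11 for B2mKO against Jak1KO, and 3 and 3 for Jak1KO against WT. Over all genes they were 2994 and 2887, 4234 and 4190, and 2613 and 2970, in the same order. Same-numbered libraries of different groups did not deviate together (75 pairs, correlation -0.587 to 0.464, median -0.004, 25 over 0.1). Pairs with different numbers gave a median of -0.007, with 86 of 300 over 0.1. Of the 30 libraries 6 correlated best with their own number. No pairing by number was thus seen, although a lack of correlation cannot exclude one. Over all genes, the 630 calls for aPD1 in WT tumours became 56 in the fit of the 2 groups alone, 925 with DESeq2 and 206 to 1041 without 1 library. At this depth, genes at a few counts per library, such as Col22a1, Col17a1 and Col24a1, are measured least precisely.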

Other observations

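The ratio of Col4a1 to Col4a2, the genes that start next to each other on opposite strands, was lowest in WT aPD1 tumours. By RPKM it was 1.16, 1.24, 1.27, 1.22 and 1.15 there and 1.29 to 1.59 in the other 25 libraries, without overlap. The ratio was chosen after its values were seen and was not tested.

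Col1a2 was highest in WT IgG1 replicate 2, B2mKO IgG1 replicate 5, B2mKO aPD1 replicate 3, Jak1KO IgG1 replicate 5 and Jak1KO aPD1 replicate 1 of their groups. Col12a1 and Col24a1 shared the highest library with Col1a2 in 5 of 6 groups, and Col8a2, Col15a1, Col22a1 and Col23a1 in 4 of 6. Col3a1, Col1a1 and Col5a2 shared it in 2 of 6, and Col4a5, Col8a1 and Col18a1 in 0. This pattern too was noticed in the data. All of these genes share the same libraries and their depth.

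Col3a1 stood at 70.9 times the RPKM of Col1a1 in WT IgG1 replicate 3 and at 8.66 to 27.0 times in the other 29 libraries.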
